A study of Mus musculus with 4 samples.

Results

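The spots described here are the 118 matrix-rich spots of a mouse heart section taken 14 days after cryoinjury. Spots came from the Visium assay, in which RNA of a tissue section is captured on an array of barcoded positions, so that a spot is a small piece of tissue that can hold several cells of different types. For each spot of the d14 section with at least 500 UMIs (molecules counted once by their tags), the UMIs of 6 matrix genes, Col1a1, Col1a2, Col3a1, Postn, Fn1 and Tnc, were divided by all UMIs of the spot. The top 10% by this score were taken, giving 118 of 1175 kept spots, out of 3067 spots in the series. The other 1057 spots of the same section served as the comparison, and the 6 scoring genes were left out of it.

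The study placed a cooled probe on the apex of the left ventricle of ICR mice at postnatal day 1, for 5 seconds. Hearts were taken 1, 4, 7 and 14 days later (d1, d4, d7 and d14), the last at postnatal day 15, and 1 fresh frozen section of 10 µm was measured at each time. All 4 sections were injured, none of an uninjured heart was analysed here, and time after injury cannot be told apart from postnatal age. Sectioning went on until the injury came into view, and no spot is labelled as injured or not. The matrix-rich spots are therefore a set chosen by expression and not a mapped scar, and spot positions were not used here.

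In a heart that heals, fibroblasts secrete fibrillar collagens, fibronectin, periostin and tenascin-C, which together form the provisional matrix and later the scar. Elastic fibres, small proteoglycans and crosslinking enzymes then organise the collagen, and resident fibroblasts, valves, vessel walls and the outer layer of the heart contain much of the same matrix without any injury. The newborn mouse heart is known for replacing lost muscle with little scar, an ability it loses within days of birth. Fewer cells of a type and less RNA per cell cannot be told apart in any value below, because spots measure summed RNA.

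The score of the 118 spots ran from 0.795% to 3.43% of a spot's UMIs with a median of 1.19%, and that of the other spots from 0 to 0.792% with a median of 0.262%. These values chose the spots and are a description. No gap separated the sets: the last spot inside had 22 scoring UMIs of 2769 (0.795%) and the first outside had 30 of 3789 (0.792%). A score from the 3 collagens alone would have kept 109 of the 118 spots, a score from Postn, Fn1 and Tnc alone 81, and those 2 scores shared 72. The score was nearly unrelated to depth over all 1175 spots of this section (Spearman's rho 0.07) and weakly so among the 118 (−0.13).

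Depth differed little between the sets: the matrix-rich spots had a median of 3865 UMIs (1064 to 7401) and 1870 genes, the others 3754 UMIs (718 to 10663) and 1600 genes. Mitochondrially encoded genes took 4.84% of UMIs in matrix-rich spots and 8.95% in the others, and haemoglobin genes 1.84% and 0.536%. Both kinds of gene were left out of the totals used below. Of the d14 spot barcodes, 333 also occurred among the 448 of d1, 550 among the 665 of d4 and 754 among the 776 of d7, where a barcode marks a position on the array and not a cell.

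**Figure D1:**
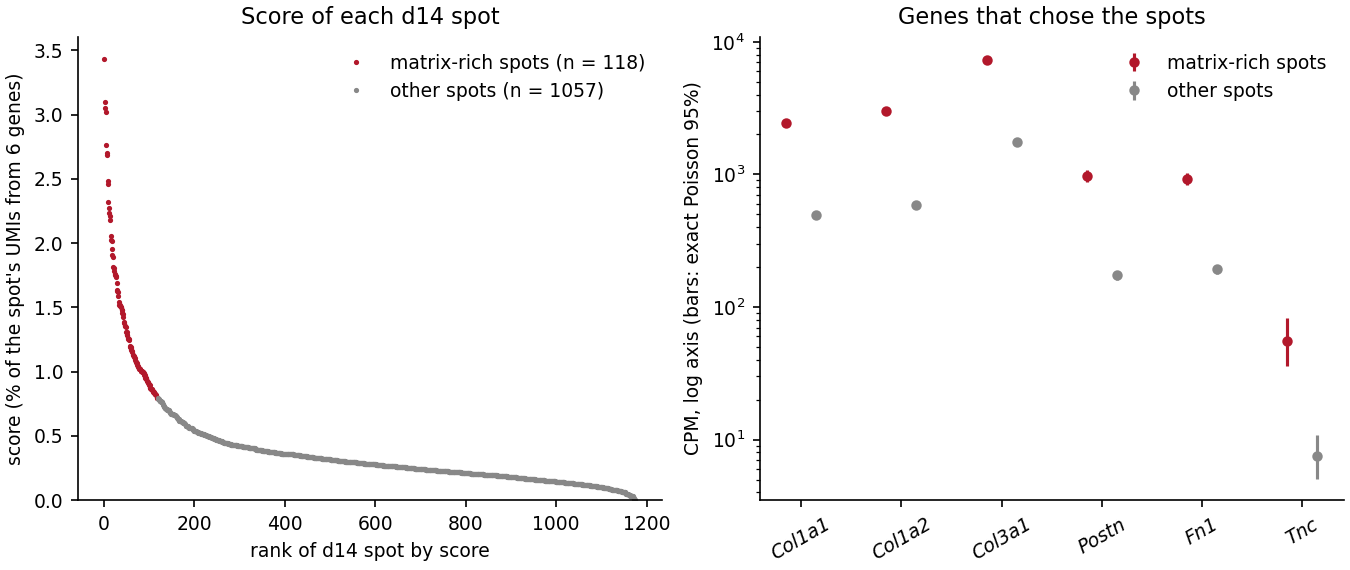
Left, the score of each d14 spot in percent of its UMIs against its rank, with the 118 matrix-rich spots in red and the other 1057 in grey. Right, the level of each scoring gene in CPM on a log axis over each set of spots, with exact Poisson 95% intervals, where the red points lie above the grey ones for all 6 genes because these genes chose the spots.

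The label of the spots was checked against the genes that define it. Col3a1, the type III collagen of young scar and vessel walls, had 7309 against 1754 CPM, where CPM is UMIs of the gene per 1000000 UMIs of all genes except the haemoglobin, mitochondrially encoded and scoring genes. Col1a1 and Col1a2, the chains of type I collagen, had 2439.5 against 495 CPM and 3024 against 587 CPM. Fn1, fibronectin, had 923 against 192 CPM, Postn, periostin, had 974 against 173 CPM, and Tnc, tenascin-C, had 55.7 against 7.52 CPM. The ratios ran from 4.17 for Col3a1 to 7.40 for Tnc, and Tnc rested on 24 UMIs in 21 of the 118 spots. Col3a1 was also found in 97.0% of the other spots.

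Outside the scoring genes, 1272 of 10566 genes with at least 20 UMIs were at least 2-fold higher in the matrix-rich spots, with an exact 95% interval above 1 (12.0%), and 188 were at least 2-fold lower (1.78%). Such genes are called higher or lower below. The intervals, given in brackets after each ratio, are exact conditional binomial (Clopper-Pearson) intervals that cover counting error only. With 1 section, spots are not replicates, no test was made, and no difference has a replicate check. The median log2 ratio over all 10566 genes was 0.23, the value against which the lists below can be read.

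The split between higher and lower calls depended on the scaling. With TMM factors from edgeR (1.13 for the matrix-rich sum and 0.883 for the other), every log2 ratio moved down, the median over all genes became −0.13, and the calls were 675 higher and 779 lower, 46.4% higher in place of 87.1%. Low counts also limited the lower calls. Matrix-rich spots held 10.1% of the UMIs used, so a gene with 0 UMIs there needed at least 35 in all to be called lower, and 1331 tested genes had fewer.

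Among the 15 genes with the largest ratios, the 8 that had a UMI in at least 25 of the matrix-rich spots and a RefSeq promoter window were Ltbp2, Fmod, Ccl21a, Cilp, Angptl7, Timp1, Thbs4 and Itgbl1. The 250 bases before the start of 3 matrix genes among them are shown because these genes carried large ratios that did not rest on a few spots. The sequences are from RefSeq, build GRCm38.p6, in the direction of the gene, with capitals marking matches on either strand to 5 short motifs. These were TATAAA (the TATA box), CCAAT (the CCAAT box), GGGCGG (the GC box), CAGACA (a Smad-binding element) and TGACTCA (the site of AP-1 factors). The windows lie at chr12:84876492-84876741 on the minus strand for Ltbp2, at chr1:134037004-134037253 on the plus strand for Fmod and at chr13:92794819-92795068 on the minus strand for Thbs4.
Ltbp2: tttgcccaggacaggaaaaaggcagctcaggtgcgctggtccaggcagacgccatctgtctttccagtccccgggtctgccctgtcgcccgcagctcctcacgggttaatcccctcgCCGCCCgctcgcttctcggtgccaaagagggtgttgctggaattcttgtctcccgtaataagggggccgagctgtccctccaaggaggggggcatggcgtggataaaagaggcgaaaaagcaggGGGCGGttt
Fmod: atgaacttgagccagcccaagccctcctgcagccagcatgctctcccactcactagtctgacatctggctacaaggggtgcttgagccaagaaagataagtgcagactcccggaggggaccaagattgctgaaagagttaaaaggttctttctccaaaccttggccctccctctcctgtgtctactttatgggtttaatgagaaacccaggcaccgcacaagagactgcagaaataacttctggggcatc
Thbs4: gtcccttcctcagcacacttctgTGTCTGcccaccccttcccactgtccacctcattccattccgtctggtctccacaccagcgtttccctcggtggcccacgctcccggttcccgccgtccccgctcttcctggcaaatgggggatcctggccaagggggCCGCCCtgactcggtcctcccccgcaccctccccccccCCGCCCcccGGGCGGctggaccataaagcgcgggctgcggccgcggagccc
The Ltbp2 window holds GGGCGG on each strand, the Thbs4 window holds 3 matches of GGGCGG and 1 of CAGACA, and the Fmod window holds none of the 5 motifs. No 2 matches overlapped in these windows. Over 985 windows of genes called higher, GGGCGG occurred in 59.0%, against 61.3% of the 8376 windows of tested genes and 32.9% of all 27025. CCAAT occurred in 34.4%, 36.3% and 34.5% in that order, TATAAA in 7.82%, 6.30% and 13%, CAGACA in 13.7%, 12.8% and 17.1%, and TGACTCA in 2.94%, 2.81% and 4.43%. The shares among genes called higher thus lay close to those of all tested genes for these 5 motifs.

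Fibrillar and associated collagens beyond the scoring ones were higher almost throughout. Of 12 listed genes 10 were tested, and 9 were called higher, with a median log2 ratio of 1.65. Col5a1 and Col5a2, which set the width of collagen fibrils, had ratios of 3.00 (2.65 to 3.40) and 4.14 (3.53 to 4.84). Col6a2, a chain of the beaded filaments around cells, had 923 against 311 CPM, a ratio of 2.97 (2.64 to 3.33). The fibril-surface collagens Col14a1 and Col16a1 had ratios of 4.00 (3.23 to 4.94) and 5.58 (4.23 to 7.33), and Col12a1 had 10.1 (4.84 to 21.1) on 18 UMIs in the matrix-rich spots.

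Elastic fibre genes had a higher median than the collagen, proteoglycan and matricellular lists, with 14 of 17 called higher and a median log2 ratio of 1.96. Eln (ENSMUSG00000029675), the elastin monomer on chromosome 5 from 134702593 to 134747323, had 3564 against 442 CPM, a ratio of 8.06 (7.52 to 8.64). Over single spots Eln ran from 0 to 23803 CPM with a median of 1926 in the matrix-rich spots, and from 0 to 10274 with a median of 296 in the others, so the ranges overlapped although the median was higher in the matrix-rich spots. Mfap4, a microfibril-associated protein, had 921 against 130.2 CPM, a ratio of 7.07 (6.18 to 8.08), and Fbln1, fibulin-1, had 1217 against 212 CPM, a ratio of 5.73 (5.13 to 6.40). Fibrillin-1 (Fbn1), the scaffold on which elastin is laid, had 839 against 238 CPM, a ratio of 3.53 (3.12 to 3.99). Ltbp2, a fibrillin-binding protein, had 97.4 against 3.63 CPM, a ratio of 26.8 (14.4 to 53.2), with 42 UMIs in 29 of the 118 matrix-rich spots and 14 in 13 of the 1057 others. Ltbp4, which guides elastic fibre assembly, had the smallest ratio of those named here, 2.57 (2.37 to 2.79).

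Small proteoglycans were called higher in 10 of 11 tested genes of 14 listed (6 with TMM scaling), with a median log2 ratio of 1.73. Bgn, biglycan, on chromosome X from 73483602 to 73495933, had 1922 against 324 CPM, a ratio of 5.94 (5.44 to 6.49), and Dcn, decorin, had 1672 against 689 CPM, a ratio of 2.43 (2.23 to 2.64). Bgn over single spots ran from 0 to 5042 CPM with a median of 1703 in the matrix-rich spots, and from 0 to 2707 with a median of 240.4 in the others. Lum, lumican, had a ratio of 3.31 (2.92 to 3.74), Vcan, the large hyaluronan-binding proteoglycan versican, 4.40 (2.83 to 6.73), and Prg4, lubricin, 10.2 (5.50 to 18.9). Fmod, fibromodulin, a collagen-binding proteoglycan of tendon-like tissue, had 85.8 against 3.63 CPM, a ratio of 23.6 (12.5 to 47.3), with 37 UMIs in 25 of the 118 matrix-rich spots and 14 in 11 of the 1057 others.

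Matricellular genes, whose products signal to cells rather than bear load, were called higher in 13 of 16 tested genes of 18 (9 with TMM scaling), with a median log2 ratio of 1.86. Sparc, a collagen chaperone outside the cell, had 4561 against 1766 CPM, a ratio of 2.58 (2.46 to 2.72). Thbs4 (ENSMUSG00000021702), thrombospondin-4, on chromosome 13 from 92751590 to 92794818, had 334 against 24.6 CPM, a ratio of 13.5 (10.4 to 17.7), and Thbs1, Thbs2 and Thbs3 had ratios of 8.34 (4.80 to 14.5), 2.49 (1.79 to 3.40) and 5.96 (4.2 to 8.40). Thbs4 had a UMI in 56 of 118 matrix-rich spots (47.5%) and 57 of 1057 others (5.39%). Cilp, first known from cartilage, had 146 against 8.30 CPM, a ratio of 17.6 (11.3 to 27.8). Ccn2, connective tissue growth factor, had 457 against 183 CPM, a ratio of 2.49 (2.12 to 2.92), and Ccn5, a family member, 16.6 (6.16 to 49.1) on 13 UMIs. Sparcl1 and Smoc2 were not called, with ratios of 1.23 (1.09 to 1.39) and 1.98 (1.59 to 2.46).

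Genes that fold, trim and crosslink collagen gave fewer calls, 10 higher of 20 tested of 22, with a median log2 ratio of 1.04. Lox and Loxl1, lysyl oxidases that crosslink collagen and elastin, had ratios of 6.77 (4.59 to 9.93) and 4.02 (3.53 to 4.58). Adamts2, which removes the amino end of procollagen, had 482 against 87.9 CPM, a ratio of 5.48 (4.59 to 6.54), and Bmp1, which removes the carboxyl end, 3.03 (2.49 to 3.67). Serpinh1, the collagen chaperone of the endoplasmic reticulum, had 851 against 482 CPM, a ratio of 1.77 (1.58 to 1.98) and was not called. Among proteases and inhibitors, 9 of 15 tested genes were called higher and 1 lower. Timp1, a tissue inhibitor of metalloproteinases, had 169 against 11.4 CPM, a ratio of 14.8 (10.1 to 22.1), and Mmp2, gelatinase A, 1134 against 392 CPM, a ratio of 2.89 (2.61 to 3.21). Timp4, the inhibitor typical of heart muscle, was lower at 41.7 against 129.7 CPM, a ratio of 0.322 (0.189 to 0.514), and Timp2 and Timp3 had ratios of 3.17 (2.74 to 3.65) and 1.52 (1.29 to 1.78). Basement membrane genes were called higher in 4 of 15 (1 with TMM scaling), and Col4a1, the main chain around vessels and muscle cells, was not called at 1691 against 1259 CPM, a ratio of 1.34 (1.24 to 1.45).

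Signalling genes that act on or through the matrix also differed. In the TGF-beta and BMP list 10 of 17 tested genes were called higher, 5 with TMM scaling. Tgfb3, a TGF-beta ligand, had 139 against 19.2 CPM, a ratio of 7.25 (5.07 to 10.3), and Tgfb2 2.52 (1.16 to 5.02) on 11 UMIs. The receptor gene Tgfbr2 had 2.15 (1.57 to 2.89) and the signal mediator Smad3 2.31 (1.24 to 4.05). Among Wnt modulators 7 of 8 tested genes were called higher. Sfrp1, Sfrp2 and Frzb, secreted proteins that bind Wnt ligands, had ratios of 6.20 (4.37 to 8.75), 6.84 (3.94 to 11.7) and 4.47 (2.96 to 6.65), and Dkk3, a dickkopf family member, had 134 against 11.9 CPM, a ratio of 11.3 (7.52 to 17.0).

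The insulin-like growth factor list had 6 of 9 tested genes called higher, both with CPM and with TMM scaling. The ligand Igf1 had 3.53 (2.19 to 5.53), and the ligand Igf2 was not called at 1.49 (1.20 to 1.84). The binding proteins Igfbp4, Igfbp5, Igfbp6 and Igfbp7 had ratios of 5.03 (4.32 to 5.85), 4.28 (3.59 to 5.09), 7.18 (5.68 to 9.06) and 3.10 (2.90 to 3.31). Among 11 tested integrin genes 5 were called higher. They included Itgbl1, a secreted integrin-like protein, at 10.9 (6.39 to 18.6) and Itga11, a collagen receptor subunit, at 7.66 (3.24 to 17.8) on 12 UMIs, while Itgb1, the common beta subunit, was not called at 1.25 (1.08 to 1.44).

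Fibroblast markers were called higher in 11 of 14 tested genes (8 with TMM scaling), with a median log2 ratio of 1.44. Dpt, dermatopontin, had 918 against 213 CPM, a ratio of 4.31 (3.81 to 4.86), and Tcf21, a transcription factor of resident heart fibroblasts, 107 against 37.9 CPM, a ratio of 2.82 (1.98 to 3.95). Pi16, a marker of fibroblasts around vessels, had 429 against 88.2 CPM, a ratio of 4.86 (4.04 to 5.83). Myofibroblast genes, which mark contractile fibroblasts early in repair, were called higher in 8 of 11 tested genes. Ptn, pleiotrophin, had 8.61 (6.23 to 11.9), Meox1 3.85 (2.49 to 5.82) and Cthrc1 3.93 (1.75 to 8.29), the last on 11 UMIs. Acta2, smooth muscle actin and the usual marker of myofibroblasts, had 858 against 558 CPM, a ratio of 1.54 (1.37 to 1.72) and was not called. Genes known from matrifibrocytes, the fibroblasts of a mature scar, were called higher in all 7 tested of 11 listed. They were Fmod, Angptl7, Ccn5, Prelp, Clu, Mgp and Meox1, with ratios from 2.18 for Prelp to 23.6 for Fmod. Ccn5 passed the minimum of 20 UMIs only with its matrix-rich UMIs counted, and Comp, Chad, Cilp2 and Ecrg4 did not reach it. The list was not particular to d14, with 6 of 7 tested genes called higher at d4 and 6 of 7 at d7. No gene of the bone and cartilage list reached 20 UMIs, and 7 of its 10 genes were at 0 in both sets.

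**Figure D2:**
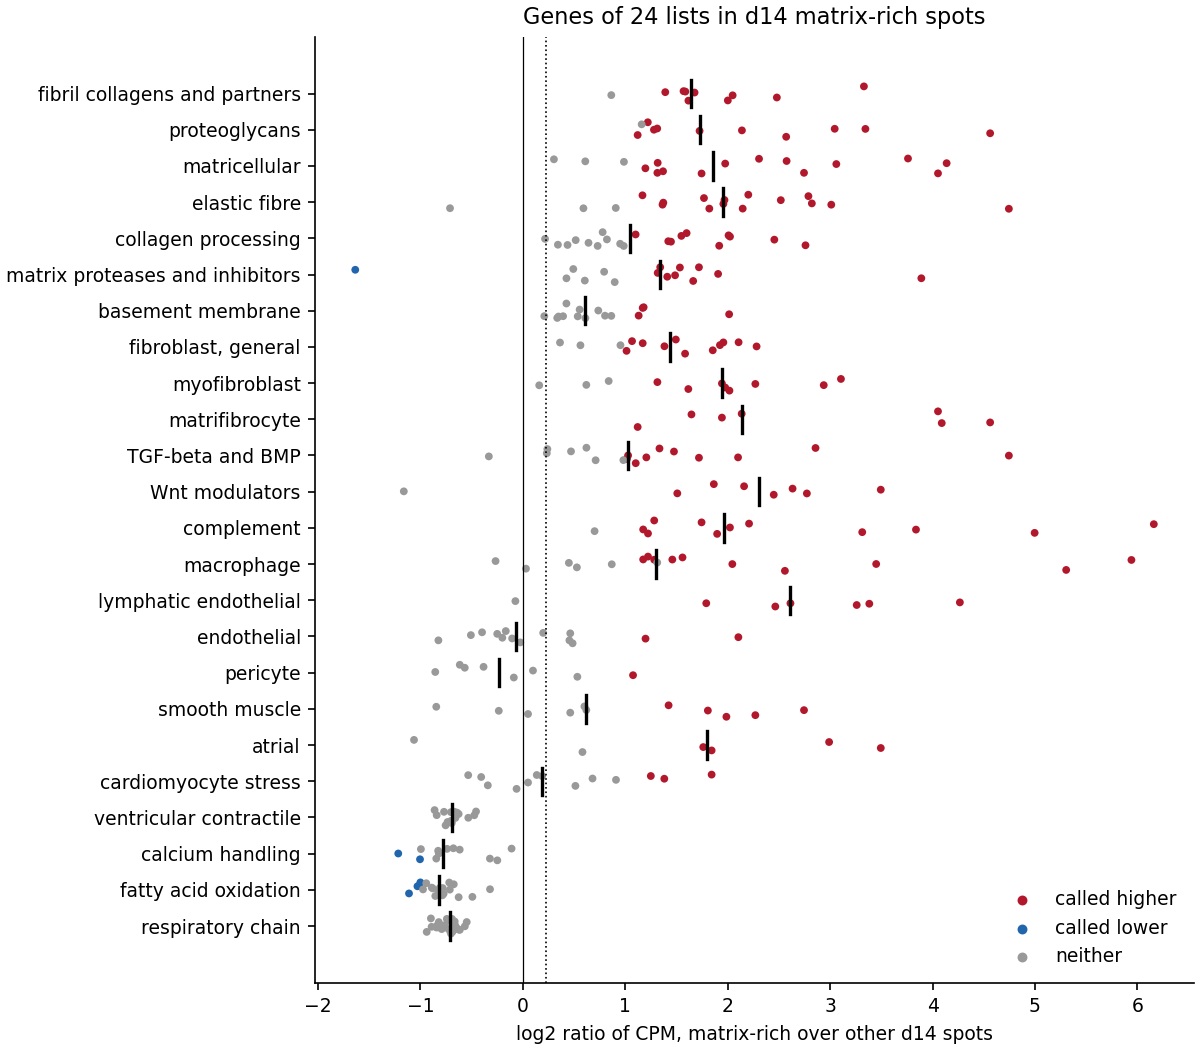
Each point is a tested gene of 1 of 24 lists and shows its log2 ratio of CPM between the d14 matrix-rich and the other d14 spots, in red if called higher, in blue if called lower and in grey otherwise. Black bars are list medians and the dotted line is the median of all tested genes, 0.23; the medians of the matrix lists lie to its right and those of the contractile and energy metabolism lists to its left.

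The 4 largest ratios of all named genes rested on very few spots. Cfd, adipsin, a serine protease secreted by fat cells, had 111 against 1.56 CPM, a ratio of 71.5 (30.6 to 204), but its 48 UMIs lay in 2 of the 118 spots and 37 of them in 1. Gpnmb, a membrane glycoprotein of lipid-laden macrophages, had 383 against 6.23 CPM, a ratio of 61.5 (39.9 to 98.6), with 113 of its 165 UMIs in 1 spot. Without its 3 richest spots the ratio of Gpnmb was 4.26 (1.88 to 9.03). Mmp12, macrophage metalloelastase, had 128 against 2.08 CPM, a ratio of 61.5 (29.1 to 149) with 44 of 55 UMIs in 1 spot, and without its 3 richest spots the ratio was 4.65 (1.02 to 17.3). Lgals3, galectin-3, had 195 against 4.93 CPM, a ratio of 39.5 (23.8 to 68.9) with 47 of 84 UMIs in 1 spot and a ratio of 10.2 without its 3 richest.

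Gpnmb, Mmp12 and Lgals3 had their maximum in the same spot. That spot stood at rank 97 by score and had 6416 UMIs, of which 257 (4.01%) came from the macrophage list, against 1.53% in the next richest matrix-rich spot. It also held 58 of the 483 Lyz2 UMIs of the matrix-rich spots, 10 of 29 for Cd68 and 7 of 22 for Trem2. Its scoring UMIs were mostly Col3a1 (29), Fn1 (15) and Col1a2 (10), with 0 for Postn and Tnc. Cfd had its maximum in another spot, at rank 62, which held all 7 Car3 and all 5 Retn UMIs of the matrix-rich spots, both known from fat cells. In that spot 2.16% of 2593 UMIs came from the adipocyte list, while the median matrix-rich spot had 0.

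The next largest ratios were spread over more spots. C4b, a complement component, had 174 against 5.45 CPM, a ratio of 31.9 (19.5 to 54.5), with 75 UMIs in 38 matrix-rich spots (32.2%) and 21 in 20 other spots (1.89%). C4b has a near-identical neighbour, C4a, so its counts are uncertain where the counting could not split them. After each spot was thinned to 2500 UMIs (107 and 937 spots left, 11 and 120 shallower ones dropped), 26.2% and 1.07% of spots had a C4b UMI. Without its 3 richest spots the ratio was 25. Angptl7, an angiopoietin-like secreted protein, had 92.8 against 5.45 CPM, a ratio of 17.0 (9.80 to 30.4) in 30 spots, and Itgbl1 was found in 30 spots with at most 2 UMIs in any. In all 3 genes no spot held more than 10% of the matrix-rich UMIs. Of all 1272 genes called higher, 219 had more than 20% of their matrix-rich UMIs in 1 spot, 11 had more than 50%, and 854 were found in at least 12 matrix-rich spots. Leaving out the richest matrix-rich spot of each gene left 854 of the 1272 called higher.

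**Figure D3:**
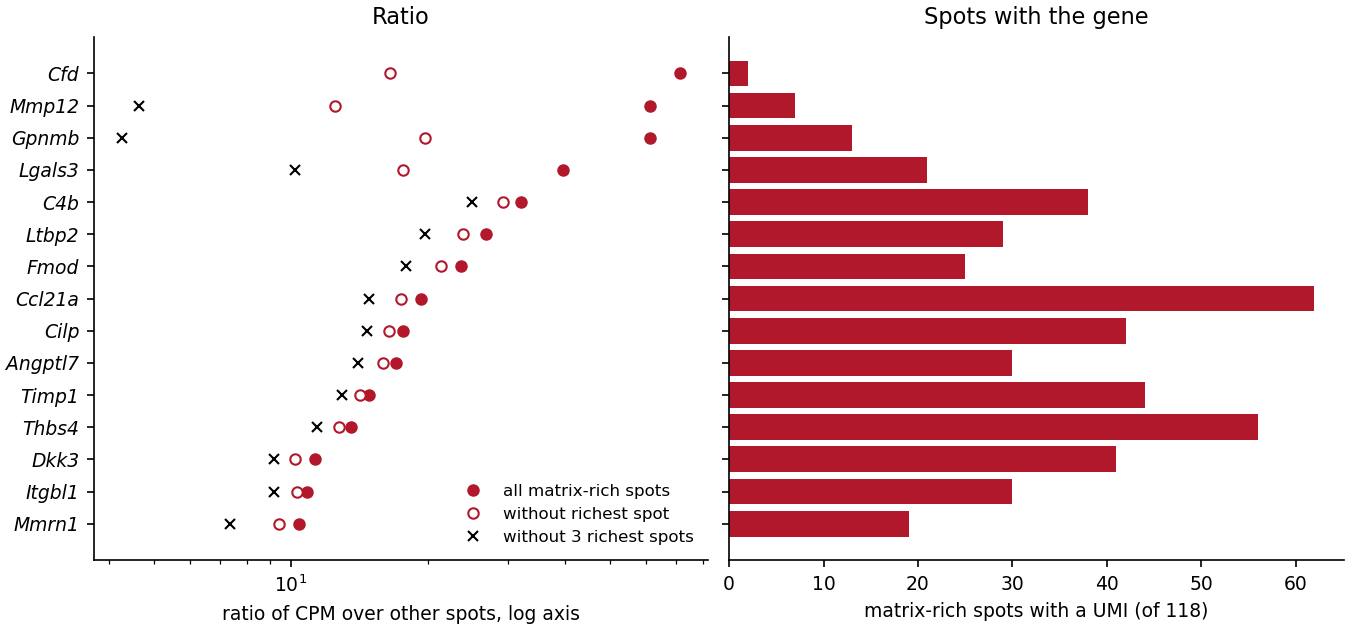
Left, ratios of CPM on a log axis for the 15 genes with the largest ratios, over all matrix-rich spots (filled), without the richest spot (open) and without the 3 richest (crosses, none for Cfd, which then has 0 UMIs). Right, the number of the 118 matrix-rich spots with a UMI; the first 4 genes have both few spots and large drops, and C4b to Mmrn1 drop far less.

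Macrophage genes were higher in most cases and unevenly spread over spots. Of 18 macrophage genes 16 were tested and 10 were called higher (7 with TMM scaling), with a median log2 ratio of 1.3. Lyz2, lysozyme, had 1120 against 271 CPM, a ratio of 4.13 (3.70 to 4.60), and over single spots it ran from 0 to 9350.3 CPM with a median of 758 in the matrix-rich spots, and from 0 to 2336 with a median of 186 in the others. The complement starter genes C1qa, C1qb and C1qc, made by resident macrophages, had ratios of 2.26 (1.72 to 2.93), 2.33 (1.88 to 2.88) and 2.43 (1.91 to 3.07), and Adgre1, the F4/80 antigen, 2.75 (1.31 to 5.36) on 12 UMIs. The macrophage list took 0 to 4.01% of a matrix-rich spot's UMIs with a median of 0.177%, and 0 to 0.380% with a median of 0.0601% in the other spots. All 4 tested class II antigen presentation genes were called higher, among them H2-Aa at 2.82 (2.06 to 3.8) and Cd74 at 3.00 (2.06 to 4.31). Without region 1, the expression cluster with most matrix-rich spots (described below), none of the 4 was called, and the log2 ratio of H2-Aa turned from 1.49 to −0.49. The neutrophil genes S100a8 and S100a9 had ratios of 3.58 (1.95 to 6.30) and 2.88 (1.84 to 4.39), each on at most 30 UMIs. Of these, 17 of 18 for S100a8 and all 30 for S100a9 lay in region 1, and without it the log2 ratio of S100a8 turned from 1.84 to −0.50. Lymphocyte genes were near the limit of counting: 3 of 13 were tested, and Ptprc, the common leukocyte antigen, was called higher on 10 UMIs.

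Complement genes were also mostly higher, and the cells they came from were not tested. Their list includes Cfd, described above, whose UMIs lay in very few spots. Of 12 tested genes of the list, 11 were called higher (8 with TMM scaling), with a median log2 ratio of 1.96. C3, the central component, had 276 against 27.8 CPM, a ratio of 9.94 (7.59 to 13). The regulator Serping1, the C1 inhibitor, had 577 against 142 CPM, a ratio of 4.06 (3.48 to 4.73). C2 had 14.3 (6.10 to 35.3) on 16 UMIs. Of 12 tested interferon response genes 4 were called higher, and 1 with TMM scaling, among them Ifi27 at 2.76 (2.02 to 3.72), while B2m was not called at 1.55 (1.39 to 1.72).

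Markers of lymphatic vessels were higher and those of blood vessels were mostly not called. Ccl21a, a chemokine of lymphatic endothelium, had 879 against 45.7 CPM, a ratio of 19.2 (16.1 to 23.2), with 379 UMIs in 62 of the 118 matrix-rich spots and 176 in 90 of the 1057 others. The gene has near-identical copies between which reads may be split, and a second identifier of the same symbol was at 0. Flt4, a receptor for lymphatic growth, had 6.12 (3.57 to 10.3), Mmrn1 10.4 (5.83 to 18.8) and Lyve1 3.46 (2.07 to 5.62), and 6 of 7 tested genes were called higher. Prox1, the transcription factor that defines lymphatic endothelium, was the exception at 23.2 against 24.4 CPM, on 10 UMIs. Among 14 endothelial genes Vwf, von Willebrand factor, and Cldn5, a tight junction protein, were called higher at 4.30 (3.45 to 5.33) and 2.29 (1.47 to 3.48), and 1 gene of the list with TMM scaling. Cdh5, VE-cadherin, had 148 against 211 CPM, a ratio of 0.704 (0.537 to 0.908), and Fabp4, a fatty acid carrier of capillaries, 1623 against 2139 CPM, a ratio of 0.759 (0.702 to 0.820); the median of the list was −0.06. Among 8 pericyte genes Cspg4 was called higher, and Rgs5 had 0.767 (0.663 to 0.883). The share called higher was 14.3% in the endothelial list and 12.5% in the pericyte list, near the 12.0% of all tested genes.

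Genes of valves, the inner lining, the outer layer and vessel walls were also present. In the valve list 6 of 8 tested genes were called higher, among them Scx, a transcription factor of tendon and valve, at 41.7 against 5.71 CPM, a ratio of 7.31 (3.70 to 14.3). Sox9 had 4.21 (1.57 to 10.3) on 8 UMIs. The endocardial list had 4 of 6 called higher (2 with TMM scaling), with Npr3 at 2.26 (1.36 to 3.60) and Plvap at 3.30 (2.32 to 4.63). Of 13 epicardial genes 5 were tested and 3 called higher, led by Upk3b at 69.6 against 4.67 CPM, a ratio of 14.9 (8.04 to 28.4). Upk3b lay in 11 spots, and Wt1, the transcription factor of the epicardium, had 9.28 against 10.4 CPM on 4 UMIs. In the smooth muscle list 5 of 11 genes were called higher: Myh11 at 2.68 (1.98 to 3.59), Cnn1, Tagln, Myl9 and Lmod1. The summed share of that list was 0.544% in the median matrix-rich spot and 0.694% in the median other spot. The list includes Pln and Des, which cardiomyocytes also express. The part of valves, vessel walls, epicardium and lymphatics in the matrix-rich values was not tested.

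Genes of ventricular cardiomyocytes had ratios under 1, but few reached 2-fold. None of 16 ventricular contractile genes was called, and all 16 had a ratio under 1, with a median log2 ratio of −0.69. Myl2, the ventricular regulatory light chain, had 9932 against 16746 CPM, a ratio of 0.593 (0.575 to 0.612). Over single spots Myl2 ran from 2741 to 19111 CPM with a median of 9666 in the matrix-rich spots, and from 3914 to 29185 with a median of 16616 in the others. Myh6, the adult alpha heavy chain, had 15866 against 25662 CPM, a ratio of 0.618 (0.603 to 0.634). With TMM scaling 12 of the 16 were called lower. The list took 2.17% to 9.74% of a matrix-rich spot's UMIs and 3.55% to 14.1% of another spot's, and no spot of either set was without it. Across the 118 spots its share was smaller where the score was higher (Spearman's rho −0.70), a description in which both measures share the same total.

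Calcium handling genes had ratios under 1 in all 12 tested. Atp2a2, the calcium pump of the sarcoplasmic reticulum, was called lower at 4517 against 9058 CPM, a ratio of 0.499 (0.476 to 0.522), and Strit1, a micropeptide that enhances this pump, at 69.6 against 162 CPM, a ratio of 0.430 (0.288 to 0.621). Of 20 fatty acid oxidation genes 4 were called lower: Cpt2 at 0.50 (0.377 to 0.652), Acadm at 0.463 (0.395 to 0.539), Hadhb at 0.496 (0.446 to 0.549) and Etfdh at 0.490 (0.395 to 0.602). All 20 had a ratio under 1. None of 24 respiratory chain genes was called, all 24 were under 1, and their median log2 ratio was −0.71. With TMM scaling 17 of the 20 and 19 of the 24 were called lower. The single lower calls lay near 2-fold: of 16 alternatives, 9 kept the calls of Atp2a2 and Hadhb, 11 that of Cpt2, 12 that of Etfdh, 13 that of Acadm and 14 those of Strit1 and Hk2. The glycolysis list had a median closer to 0, at −0.26, and 1 of 18 genes was called lower, Hk2, hexokinase 2, at 0.466 (0.316 to 0.665), and Gapdh had 0.837 (0.787 to 0.888).

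Some cardiomyocyte genes went the other way. Nppa, atrial natriuretic peptide, which atrial muscle makes and strained ventricle makes again, had 7275 against 2027 CPM, a ratio of 3.59 (3.44 to 3.74). Over single spots Nppa ran from 0 to 29732 CPM with a median of 5231 in the matrix-rich spots, and from 0 to 34554 with a median of 536 in the others, so some of the other spots exceeded every matrix-rich one. Of 9 listed atrial genes 6 were tested and 4 were called higher, namely Nppa, Myl4, Dkk3 and Stard10. Dkk3 is also in the valve and Wnt modulator lists. Myl7 and Sln, other genes of the atrial list, were not called. Myl4, the atrial light chain, had 74.2 against 9.34 CPM, a ratio of 7.95 (4.78 to 13.2) in 15 spots, whereas the atrial ligand Bmp10 was at 0 in both sets. All 32 Myl4 UMIs of the matrix-rich spots lay in region 1. The atrial list took 0.561% of UMIs in the median matrix-rich spot and 0.0892% in the median other spot, and Nppa supplied 3137 of its 3489 UMIs in the matrix-rich spots. In the matrix-rich spot with the largest share of the list, Nppa gave 202 of its 209 UMIs and Pam gave 7. Ankrd1 and Acta1, genes of strained or immature cardiomyocytes, had 1099 against 462 CPM, a ratio of 2.38 (2.14 to 2.63) and 677 against 259.9 CPM, a ratio of 2.60 (2.28 to 2.97). Without region 1 of the clustering described below, the log2 ratio of Acta1 turned from 1.38 to −0.18. Ankrd1 was not called there, at 0.69, nor with TMM scaling, at 0.89. The other 10 stress genes were not called, and Csrp3 had 0.691 (0.635 to 0.751). The part of atrial muscle in these values was not tested.

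The series title names Egr1, an immediate early transcription factor, and senescence. Egr1 had 41.7 against 9.34 CPM, a ratio of 4.47 (2.39 to 8.08), on 18 UMIs in 13 matrix-rich spots and 36 UMIs in the others. Junb, Nr4a1 and Fosl2, other genes of the early response, were called higher at 2.47 (1.23 to 4.65), 2.53 (1.39 to 4.40) and 2.44 (1.53 to 3.76), on 13 to 27 UMIs. They made 4 of 16 tested genes of the list with Egr1, and 1 with TMM scaling. Cdkn1a, p21, a cell cycle inhibitor of senescent cells, was not called at 102 against 92.1 CPM, a ratio of 1.11 (0.791 to 1.52). Of 12 tested senescence arrest genes 1 was called higher, Gadd45b, on 14 UMIs, and Cdkn2a was at 0 in both sets. The secretory list of senescence had 8 of 12 called higher, among them the growth factor binding proteins Igfbp3, Igfbp4, Igfbp5 and Igfbp7, the matrix genes Timp1 and Ccn2, and Gdf15, and Il6 and Il1a were at 0. Agrn, agrin, a matrix proteoglycan, had 111 against 96.2 CPM, a ratio of 1.16 (0.838 to 1.57). Of genes of dividing cells, Cdk1 and Mcm2 were called higher on 9 and 10 UMIs, which made 2 of 13 tested (15.4%) beside 12.0% of all tested genes, and Pcna was not called at 0.745 (0.426 to 1.22). Among 10 reference genes 1 was called higher, Actb, the cytoplasmic actin, at 2.14 (2.01 to 2.29). The senescence arrest and reference lists had 8.33% and 10% of tested genes called higher, below the 12.0% of all. With TMM scaling 0 genes of the senescence arrest and reference lists and 1 of the proliferation list were called higher.

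The 15 genes with the smallest ratios each had 0 to 2 UMIs in the matrix-rich spots. Ret, Pygo1, Kcnd2, Dkc1 and Mon1a had 0 there. With 0 replaced by a floor of 3 counts, Pygo1, a Wnt co-activator with 64 UMIs in the other spots, was 2.39-fold lower. Kcnd2, a potassium channel of the heart, with 60, was 2.24-fold lower and Mon1a, with 51, 1.90-fold lower. These values follow from the floor and are not limits of the exact intervals, which allow smaller differences. Dbt, a subunit of the enzyme that degrades branched amino acids, had 1 UMI against 97, a ratio of 0.0922 (0.00231 to 0.526). Acot1, an acyl-CoA thioesterase with near-identical neighbours, had 2 against 130 and a ratio of 0.138 (0.0164 to 0.507). Their upper limits stood at up to 0.807. These 15 genes were picked as extremes, from intervals not corrected for the 10566 genes tested. The part of counting noise in their ratios was not tested.

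The matrix-rich spots fell in several expression regions. When all 1175 spots were clustered by expression without the scoring genes, 85 of the 118 (72.0%) fell in region 1, 22 in region 2, 8 in region 3 and 3 elsewhere. Genes of the spots also made the clusters, so the differences between regions are a description. Region 1 had 108 spots and was led by Gpnmb, Mmp12, Cfd, Fmod, Lgals3 and C4b. Region 2 had 129 spots and was led by Cntn2, Npr3, H19 and Vwf. Region 3 had 110 spots and was led by Myh11, Tagln, Olfr78 and Tpm2, with Myh11, Tagln and Tpm2 known from smooth muscle.

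Most UMIs of several genes described above lay in region 1. C4b had 73 of its 75 matrix-rich UMIs there, Fmod all 37 and Ccl21a 367 of 379. The matrix-rich spots of region 1 had 4125 (3903 to 4356) CPM of Eln, those of region 2 1355 (1112 to 1636) and those of region 3 4211 (3526 to 4990.3). The elastic fibre share of the median matrix-rich spot was 0.977%, 0.493% and 0.545% in regions 1, 2 and 3. In region 3 the highest spot had 2.85%, so its summed level is not that of a typical spot. Thbs4 had 424 (355 to 503) CPM in region 1, 87.8 (35.3 to 181) in region 2 and 127 (34.5 to 324) in region 3. Dpt differed less, at 1046 (936 to 1166), 589.8 (433 to 784) and 569.9 (338 to 901) CPM, and Col3a1, one of the genes that chose the spots, had 7589 (7287 to 7900.1), 6538 (5988 to 7124) and 6744 (5868 to 7713). The brackets are exact Poisson 95% intervals.

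The 22 matrix-rich spots of region 2 had 565 (412 to 756) CPM of Vwf, against 246 (194 to 307) in region 1, and 891 (696 to 1124) CPM of Igfbp3 against 236 (185 to 296). Igf2, a growth factor of the developing heart, had 690.2 (519.9 to 898) against 140.4 (102 to 188), and Npr3, an endocardial marker, 138 (68.9 to 247) against 31.9 (15.3 to 58.7). C4b and Fmod had 0 UMIs in the region 2 spots, where 0 counts allow up to 46.3 CPM by the exact Poisson interval. Acta1 had 37.6 (7.76 to 110) CPM there and 858 (759 to 967) in region 1, and Atp2a2 7479 (6891 to 8104) and 3601 (3394 to 3818). The ventricular contractile share was 7.77% in the median spot of region 2 and 5.73% in region 1.

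The 8 matrix-rich spots of region 3 had 2343 (1839.7 to 2941) CPM of Acta2, 1171 (825 to 1615) of Tagln and 443 (242 to 744) of Myh11, against 813 (717 to 919.6), 354 (291 to 426) and 140.4 (102 to 188) in region 1. Of these 8 spots, 7 had a UMI of Acta2, 4 of Tagln and 5 of Myh11. The smooth muscle share, which includes Pln and Des, was 0.697% in their median spot. It was 0.508% in the median matrix-rich spot of region 1 and 0.694% in the median other spot of the section. The summed levels thus need not be those of a typical matrix-rich spot of region 3. Mgp, matrix Gla protein, an inhibitor of calcification in vessel walls, had 8263 (7291 to 9329) CPM there, 6195 (5922 to 6477) in region 1 and 2146 (1836 to 2493) in region 2. These 8 spots included the one with the highest score of the section, 3.43%. Leaving out all of region 1, which had the largest share of UMIs from the atrial list (0.991%), mostly Nppa in the matrix-rich spots, left 33 matrix-rich spots and 569 higher and 95 lower calls, of which 333 higher calls were shared with the 1272. Egr1 was then no longer called, and 182 named genes called higher became 76.

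**Figure D4:**
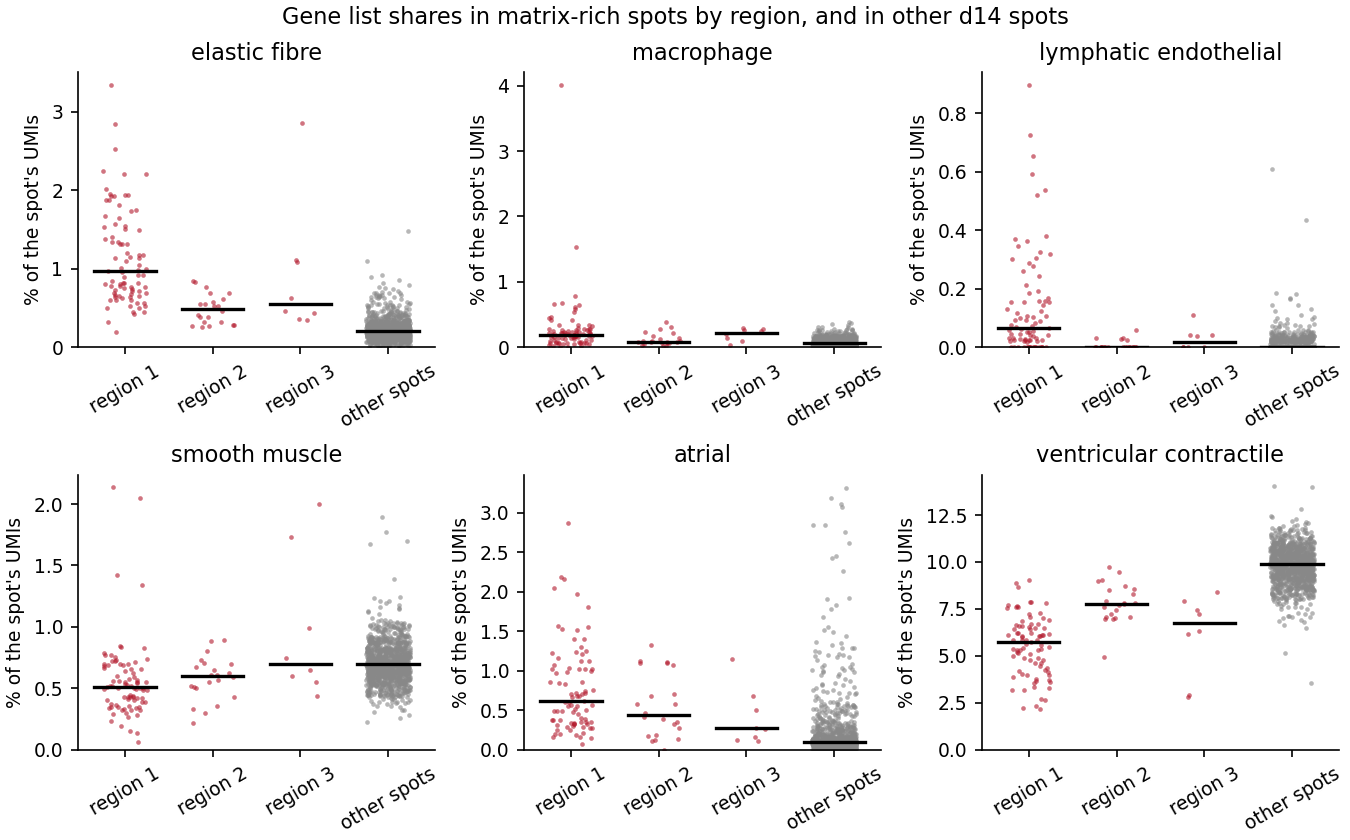
Each point is a d14 spot and shows the share of its UMIs from 1 gene list, for the matrix-rich spots of regions 1, 2 and 3 (red) and for the other spots (grey), with black bars at the medians. Elastic fibre, macrophage and lymphatic shares reach furthest in region 1, and the ventricular contractile share is lower in each of the 3 regions than in the other spots.

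The same rule was applied to the other sections, each against the rest of its own section. It gave 44 spots at d1, 66 at d4 and 77 at d7, with median scores of 0.896%, 2.04% and 1.98% beside 1.19% at d14. At d4, 1285 of 11603 genes were called higher (11.1%) and 731 lower (6.30%), at d7 1415 of 11200 (12.6%) and 331 (2.96%), and at d1 853 of 10011 (8.52%) and 228 (2.28%). Of the d14 higher calls tested in both, 577 were also higher at d4 (48.2% of those of d14 and 52.6% of those of d4). The overlap was 613 with d7 (51.3% and 48.7%) and 335 with d1 (31.6% and 42.7%). Median UMIs per matrix-rich spot were 6134 at d1, 11828 at d4 and 6382 at d7, above the 3865 of d14, and more genes were tested at d4 and d7 than at d14. With 1 section a time, no difference between sections was tested.

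Of 9 named myofibroblast genes outside the score, 3 had a level in the d14 matrix-rich spots whose interval lay below those of both d4 and d7, namely Cthrc1, Thbs2 and Ptn. The other 6, Acta2, Actn1, Cdh11, Itga11, Meox1 and Tagln, did not. The intervals here and in the next paragraph cover counting error only, not the spread between hearts. The scoring genes took 1.35% of the UMIs of matrix-rich spots at d14, 2.19% at d4 and 2.50% at d7. The chosen spots thus differed in matrix content, and the effect of this on the levels was not tested. Cthrc1, a gene of activated fibroblasts, had 25.5 (12.7 to 45.6) CPM in the d14 matrix-rich spots, after 166 (123 to 221), 379.6 (336 to 427) and 407 (349.8 to 469.9) in those of d1, d4 and d7. Tnc had 201 (153 to 259.9), 371 (329 to 418), 593 (524 to 669) and 55.7 (35.7 to 82.8) CPM from the first section to the last, and Postn 711 (617 to 815), 3437 (3304 to 3574), 4447 (4255 to 4646) and 974 (883 to 1072). Both are scoring genes, which chose the spots in each section, and their values are a description from which nothing is read. Ptn had 920.4 (852 to 993) CPM at d4, 655 (583 to 735) at d7 and 181 (143 to 226) in the d14 spots. Eln had 319 (257 to 391), 5574 (5405 to 5748), 10278 (9984 to 10579) and 3564 (3388 to 3747) CPM, so the d14 level lay under those of d4 and d7 and above that of d1. For Cthrc1 and Eln the d14 interval overlapped none of the other 3.

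Other genes had their highest level of the 4 sections at d14. Pi16 had 3.47 (0.0878 to 19.3), 19.1 (10.5 to 32.1), 60.0 (39.5 to 87.3) and 429 (369 to 495) CPM in the matrix-rich spots. In the other spots Pi16 also stood highest at d14, at 88.2 CPM beside 21.8 at d7. C4b had 17.3 (5.63 to 40.4), 5.46 (1.49 to 14.0), 44.4 (27.1 to 68.6) and 174 (137 to 218) CPM, and Thbs4 38.1 (19.0 to 68.2), 141 (115 to 171), 155 (121 to 196) and 334 (282 to 393). Angptl7 had 0 (0 to 12.8), 6.83 (2.22 to 15.9), 11.1 (3.61 to 25.9) and 92.8 (66.3 to 126) CPM. Cilp had 0 (0 to 12.8), 65.5 (48.3 to 86.9), 88.9 (63.5 to 121) and 146 (112 to 187), where the d7 and d14 intervals overlapped. These genes were chosen from the named ones after their values were seen.

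The lists were also counted in each section. Elastic fibre genes were called higher in 15 of 17 at d4, 14 of 17 at d7 and 14 of 17 at d14, and in 7 of 15 at d1. Macrophage genes were called higher in 15 of 15 at d1, 14 of 14 at d4, 11 of 15 at d7 and 10 of 16 at d14. Matrifibrocyte genes were called higher in 1 of 4 at d1, 6 of 7 at d4, 6 of 7 at d7 and 7 of 7 at d14. Their median log2 ratios were 1.01, 2.99, 2.21 and 2.14 in that order. Ventricular contractile genes were called lower in 10 of 16 at d4, 8 at d7, 1 at d1 and 0 at d14, and respiratory chain genes in 22 of 24, 12, 0 and 0 in the same order. The respiratory chain list had median log2 ratios of −1.14 at d4, −1.0 at d7, −0.65 at d1 and −0.71 at d14. Egr1 had a ratio of 7.00 (3.75 to 12.8) in the d1 section, 2.29 (1.80 to 2.90) in d4 and 1.5 (1.08 to 2.05) in d7, beside 4.47 (2.39 to 8.08) in d14. Acta2 had ratios of 5.34 (4.96 to 5.75) in d4 and 2.18 (1.93 to 2.46) in d7, beside 1.54 (1.37 to 1.72) in d14.

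**Figure D5:**
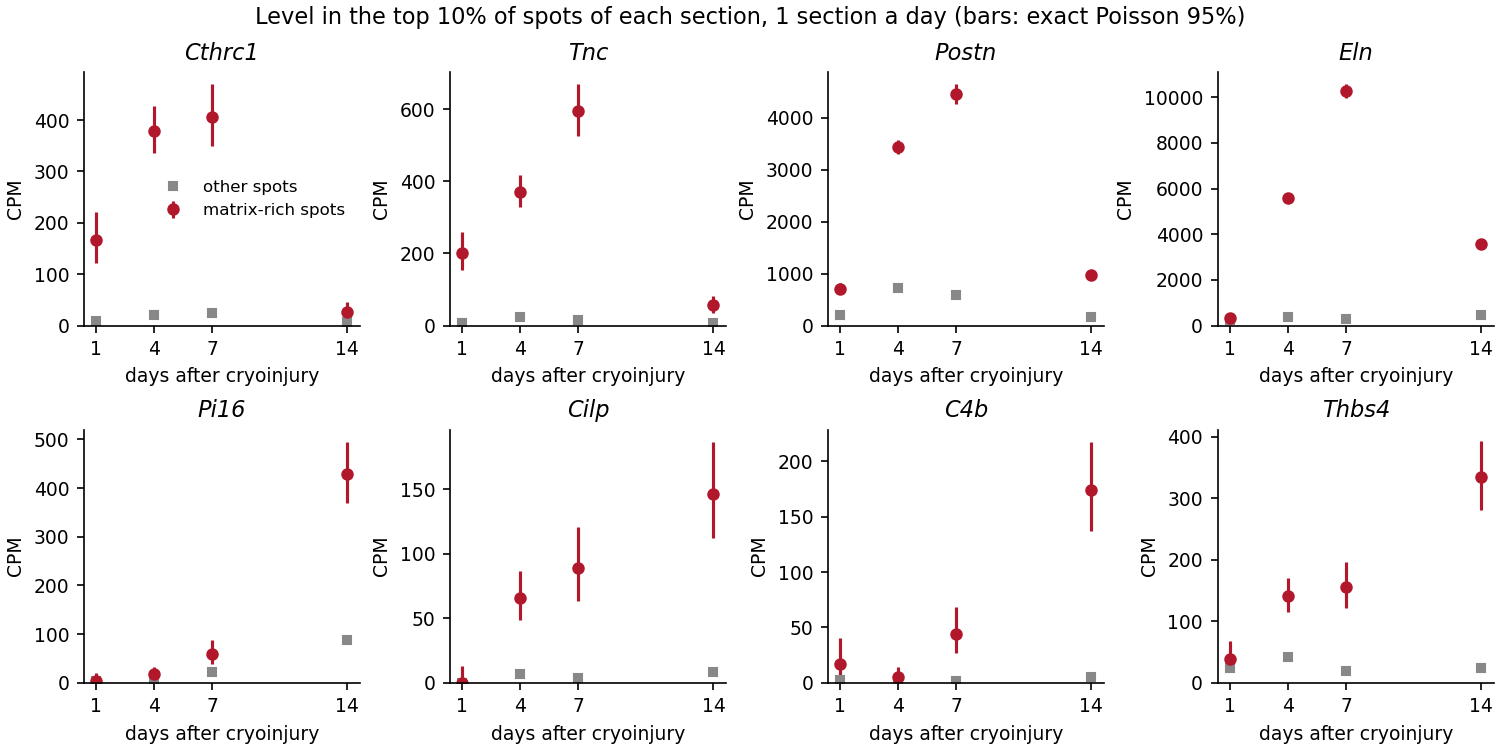
CPM of 8 genes in the top 10% of spots by score (red, exact Poisson 95% intervals) and in the other spots (grey) of the sections taken 1, 4, 7 and 14 days after cryoinjury, 1 section each. The red points of Cthrc1, Tnc, Postn and Eln are highest at day 7, and those of Pi16, Cilp, C4b and Thbs4 at day 14. The intervals of Cthrc1 at days 4 and 7 overlap, as do those of Cilp at days 7 and 14.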

How the data were processed

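UMI counts per gene and spot were used as the authors deposited them, from 4 Visium sections (d1, d4, d7 and d14, 1 each). Space Ranger 1.3.0, Seurat 4.1.1 and build mm10 are named in the submitters' processing notes; how spots were selected before deposit is not given in the sources used here. Of 32285 features, 32235 matched GENCODE vM21 for positions, and 38 symbols were shared by more than 1 feature.

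Spots with at least 500 UMIs were scored, and counts were summed over the top 10% and over the rest. CPM left out 8 haemoglobin, 13 mitochondrially encoded and 6 scoring genes. A gene was tested with at least 20 UMIs and called at a ratio of at least 2, or at most 0.5, with an exact 95% interval off 1. This minimum counted both sets of spots, so a gene with few UMIs in the other spots could pass through its matrix-rich UMIs. With a minimum of 50 UMIs, 154 of the 182 named genes called higher were still called. The members and the 48 lists were chosen with earlier results of these data known. Named genes were the scoring genes, Egr1, Cdkn1a and Agrn, the 15 largest and 15 smallest ratios among called genes with at least 50 UMIs, and, of each list, up to 4 members with most UMIs and those called. Predicted, ribosomal protein, sex-linked marker, haemoglobin and mitochondrially encoded genes were left out of the ranking. Regions came from Leiden clustering (scanpy 1.11.5, resolution 0.8, 15 components, 2000 variable genes, scoring genes left out). No doublet caller was run on spots. TMM scaling used edgeR 4.0.16. Other tools were Python 3.11.15, numpy 2.4.6, scipy 1.17.1 and R 4.3.3. The comparison was tested on simulated summed counts with counting error only. That simulation had no unevenness between spots, so it cannot show how the intervals hold for unevenly spread genes. The alternatives, 14 planned and 2 chosen after seeing the data, changed one choice at a time.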

Additional observations from a re-analysis of the deposited data

Results flagged for a closer look

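In 3 named genes the call at d14 was opposite to the call in another section, each measured against the rest of its own section. Of the higher calls of d14 tested in both sections, 4 of 1060 were called lower at d1, 5 of 1198 at d4 and 2 of 1194 at d7. Over all genes tested in both, 2.30%, 6.71% and 3.17% were called lower there, so opposite calls were rarer than these shares. Of the lower calls of d14, 2 of 169 were called higher at d1, 0 of 182 at d4 and 1 of 186 at d7. Over all genes tested in both, 8.18%, 10.6% and 12.3% were called higher there. With 1 section a time the differences were not tested. Npr3, an endocardial marker, had a ratio of 2.26 at d14 and 0.314 at d1. S100a9, a neutrophil gene, had 2.88 at d14, 0.247 at d4 and a ratio of 0 at d7, where the matrix-rich spots held 0 of 64 UMIs. Scara5, a marker of fibroblasts, had 2.61 at d14 and 0.157 at d4.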

How the results depend on the processing

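No paired analysis was possible because each time point has 1 section, and for the same reason no replicate could be left out. Against 1272 higher and 188 lower calls, TMM scaling gave 675 and 779, the top 5% of spots 352 lower, the top 20% 71 lower, leaving out region 1 569 higher and 95 lower, and leaving out each gene's richest matrix-rich spot 410 lower; the other counts stayed within 1.5 times. Leaving out a region leaves fewer spots by construction. Leaving out each gene's richest spot takes UMIs from the matrix-rich side only, so lower ratios follow largely by construction. TMM scaling moved every log2 ratio down by the same amount. Otherwise the cause was not tested. Median log2 ratios of lists changed sign as follows. With TMM scaling they were −0.32 for mast cell, −0.17 for cardiomyocyte stress, −0.23 for senescence arrest and −0.11 for agrin and Yap genes. Without a gene minimum skeletal muscle had 2.16. In the top 5% endothelial genes had 0.0030, mast cell −0.56, adipocyte −0.31 and skeletal muscle 0.75, and in the top 20% mast cell had −0.62. With the collagen score endothelial genes had 0.051 and mast cell −0.57, and with the Postn, Fn1 and Tnc score mast cell had −0.56. Without region 1 endothelial genes had 0.32, neutrophil −0.22, skeletal muscle 0.042, cardiomyocyte stress −0.17, senescence arrest −0.22, agrin and Yap −0.040 and red blood cell −0.26. Without the richest spots lymphocyte had −0.091, mast cell −0.53 and senescence arrest −0.063. Of 205 named genes called higher or lower, 8 changed sign, all without region 1: S100a8 (−0.50), Pdpn (−0.0036), Acta1 (−0.18), Mmp19 (−0.091), Cxcl16 (−0.091), Ccn4 (−0.21), H2-Aa (−0.49) and Nfatc1 (−0.0036). Of 103 named genes not called, 31 changed sign under at least 1 alternative, 13 with TMM scaling and 18 without region 1, Agrn (lowest −1.18) and Abcc9 (highest 0.073) among them. Of 182 named genes called higher, 137 were still called with TMM scaling 166 without the richest spot and 76 without region 1. Of 23 called lower, 10 were still called in the top 5%, 6 in the top 20%, 7 with the Postn, Fn1 and Tnc score and 4 without region 1.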
